A study of Mus musculus with 16 samples.

Results

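The genes described here make and break down ceramide, the lipid at the centre of sphingolipid metabolism, and were measured as messenger RNA in mouse rotator cuff muscle. The set names 10 genes, of which 9 were matched by symbol in a count table of 11710 genes: the ceramide synthases Cers1, Cers2, Cers4 and Cers5, the serine palmitoyltransferase subunits Sptlc1 and Sptlc2, the desaturase Degs1, the ceramidase Asah1 and the sphingosine 1-phosphate lyase Sgpl1. Cers6, the remaining synthase named, was not analysed here. Cers1 was chosen by its measured level, which fell after surgery, so its surgery and strain values are given as a description with no test. The counts of genes that passed a test are over the 8 others.

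The study crossed strain with surgery in 4 groups of 4 samples. The mice were C57BL/6J (called BL6 below), a common laboratory strain, or MRL/MpJ (called MRL below), a strain known for its wound healing. In each strain, muscle came either from unoperated animals or after tenectomy, the cutting of the tendon, together with denervation (called operated below), a model of a rotator cuff tear. The controls had no operation, so the contrast holds the tendon cut, the nerve injury and the operation together. The muscle is the infraspinatus in the design text but the supraspinatus on the samples, and how long after the operation it was taken is not used here. The labels do not say that the samples of a group came from separate animals, and p-values then measure only the spread between these samples, which may be technical.

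Ceramide is made from serine and palmitoyl-CoA. Serine palmitoyltransferase, a complex of Sptlc1 with Sptlc2, carries out the first and rate-limiting step, and its product is reduced by Kdsr, joined to a fatty acid by a ceramide synthase and desaturated by Degs1. The ceramide synthases differ in the chain length they add: Cers1, known as the main synthase of skeletal muscle and brain, adds stearoyl chains, Cers2 adds very long chains, Cers5 mainly palmitoyl chains, and Cers4 long to very long chains. Asah1 cleaves ceramide to sphingosine in the lysosome, and Sgpl1 removes sphingosine 1-phosphate for good. Muscle ceramides are studied for their part in insulin resistance and in ageing of muscle.

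The sequences of 4 promoters are shown because these genes carry the contrast within the set: Cers1 is the gene that was lower after surgery, Sptlc2 and Cers5 had the largest rises of the members tested in BL6, and Sptlc1, the partner of Sptlc2 in the same enzyme, did not pass the test in either strain. Each runs 5′ to 3′ on the gene's strand, from 250 bases before to 50 bases after the start site in RefSeq (GRCm38.p6). Capitals mark E-boxes, the CANNTG motif of basic helix-loop-helix factors, which is its own reverse complement on the other strand. The windows are chr8:70315525-70315824 (plus strand) for Cers1, chr12:87388306-87388605 (minus) for Sptlc2, chr15:99772466-99772765 (minus) for Cers5 and chr13:53377312-53377611 (minus) for Sptlc1.
Cers1: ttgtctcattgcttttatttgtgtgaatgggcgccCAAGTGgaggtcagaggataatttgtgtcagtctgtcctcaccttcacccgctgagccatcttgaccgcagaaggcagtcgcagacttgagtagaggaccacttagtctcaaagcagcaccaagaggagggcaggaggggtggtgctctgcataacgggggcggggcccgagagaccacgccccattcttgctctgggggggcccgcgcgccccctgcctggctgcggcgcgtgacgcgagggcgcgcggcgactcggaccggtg
Sptlc2: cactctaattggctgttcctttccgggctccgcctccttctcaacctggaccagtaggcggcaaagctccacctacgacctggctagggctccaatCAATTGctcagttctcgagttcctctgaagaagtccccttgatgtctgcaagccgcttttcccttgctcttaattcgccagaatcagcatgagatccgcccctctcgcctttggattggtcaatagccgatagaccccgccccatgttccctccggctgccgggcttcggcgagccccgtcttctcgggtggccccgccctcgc
Cers5: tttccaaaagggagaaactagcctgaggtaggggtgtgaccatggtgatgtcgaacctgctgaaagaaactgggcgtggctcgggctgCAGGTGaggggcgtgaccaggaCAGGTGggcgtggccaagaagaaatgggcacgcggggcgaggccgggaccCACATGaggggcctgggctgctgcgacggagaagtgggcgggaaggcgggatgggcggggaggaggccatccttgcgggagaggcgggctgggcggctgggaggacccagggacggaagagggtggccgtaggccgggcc
Sptlc1: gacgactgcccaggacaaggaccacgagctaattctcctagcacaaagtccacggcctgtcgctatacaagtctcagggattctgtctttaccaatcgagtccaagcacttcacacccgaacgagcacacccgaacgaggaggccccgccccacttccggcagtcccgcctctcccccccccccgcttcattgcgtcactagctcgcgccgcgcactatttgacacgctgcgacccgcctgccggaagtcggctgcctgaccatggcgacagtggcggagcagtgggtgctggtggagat
Cers1 and Sptlc2 each held 1 E-box, Cers5 held 3 and Sptlc1 held 0, where 72.3% of 32817 promoter windows of this length held at least 1. No member of these 4 held the CAGCTG form, which stands in 16.3% of windows and is itself an E-box. Among the members not shown, 1 of the 2 windows of Cers2 held it 2 times and the window of Degs1 held it 1 time. The GC box GGGCGG, searched on both strands, occurred 3 times in each of Sptlc2 and Cers5 and 1 time in each of Cers1 and Sptlc1, against 35.6% of windows with at least 1. None of the 4 held TATAAA on either strand, which 13.6% of windows held. A match is a description of the letters in the window and not a measured binding site.

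Total counts per sample ran from 24323862 to 43552964, and each member had at least 13 reads in every sample. Levels are in CPM, the counts of a gene per 1000000 counts of the library, with library sizes scaled by edgeR's trimmed mean of M-values. All 10 muscle fibre markers listed were measured, and they summed to 162887 to 217485 CPM in unoperated BL6, 68853 to 199276 in operated BL6, 152650 to 168183 in unoperated MRL and 100040 to 132284 in operated MRL. In comparisons between groups the test was edgeR's quasi-likelihood test over 11709 genes with Benjamini-Hochberg adjustment, with calls made at an adjusted p under 0.05. A fall or rise in these whole-muscle samples can come from fewer or more cells of a type or from less or more RNA per cell, and these cannot be told apart. 2 libraries were marked as standing apart from their groups: replicate 4 of operated BL6 and replicate 1 of unoperated MRL. Each held the highest summed macrophage and fibroblast markers of its group. Their macrophage sums were 628 CPM against 96.0 to 180 in the rest of operated BL6, and 360 CPM against 86.7 to 113 in the rest of unoperated MRL. Replicate 1 of unoperated BL6 had the same trait at lower sums, with 155 CPM of macrophage markers against 42.4 to 63.0 in its group. Replicate 4 of operated MRL differed from its group in its counts more than replicate 1 of unoperated MRL did. Its chi-square per degree of freedom was 233 to 301 with the others of its group, against 44.4 to 64.4 among them. For replicate 1 of unoperated MRL these values were 59.6 to 75.8 against 25.8 to 38.0. Counts without the 2 marked libraries are given beside the results. Counts without these 2 and replicate 4 of operated MRL (the 3 libraries), a set that was not planned, are also given.

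After surgery, 5 of the 8 members tested rose in BL6 (62.5%), where 67.9% of all genes were called, 35.1% higher and 32.8% lower. The same 5 rose in MRL, where 45% of all genes were called, 22.3% higher and 22.7% lower: Sptlc2, Cers2, Cers4, Cers5 and Degs1. No member fell by the test. The median log2 fold change of the 8 members was 0.75 in BL6 and 0.55 in MRL, against 0.04 and 0.01 over all genes. Leaving out both libraries that stood apart gave 5 of 8 in each strain, as did leaving out all 3 libraries, and without replicate 1 of unoperated BL6 the counts were 6 in BL6 and 5 in MRL. The share of members called in BL6 was near that of all genes in either direction, 67.9%. All 5 calls were rises, and 35.1% of all genes were called higher. In MRL the 62.5% called stood against 45% in either direction and 22.3% higher. The members were chosen with earlier results of these data known, so the count by itself is no result about them. No share of all genes is given for the fits that leave out libraries. The plot of levels by group gives each sample.

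**Figure D1:**
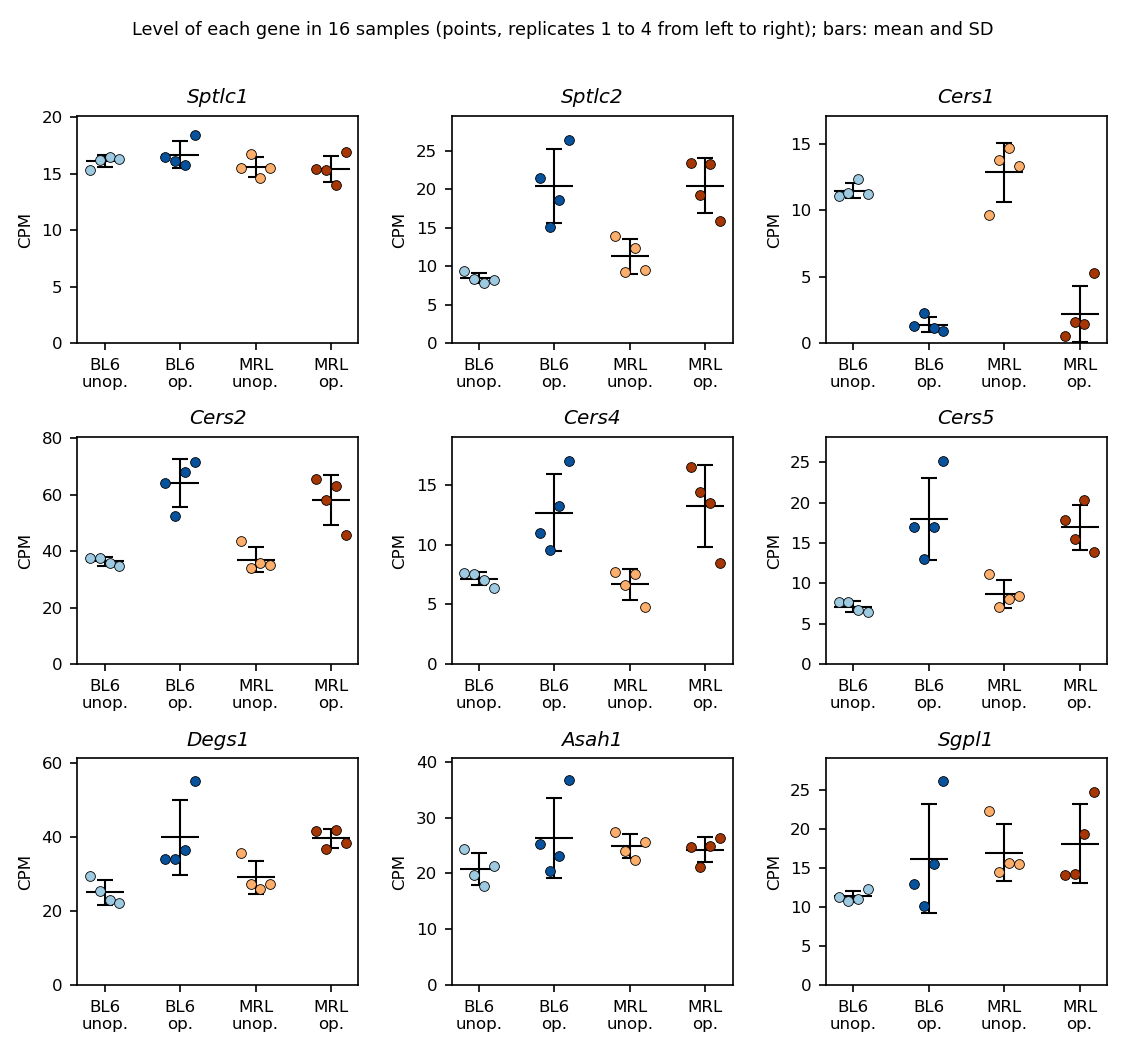
Level of each of the 9 genes in CPM (vertical axes, from 0) in the 16 samples, with points for replicates 1 to 4 of each group and bars for the mean and SD of 4 samples. Operated samples lie above the unoperated samples of their strain for Sptlc2, Cers2, Cers4, Cers5 and Degs1 and below them for Cers1, and the ranges overlap for Sptlc1, Asah1 and Sgpl1.

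Of the long-chain base subunits of the entry enzyme, Sptlc2 rose and Sptlc1 did not pass the test. Sptlc1 (ENSMUSG00000021468, chromosome 13, 53332748 to 53377397, minus strand, GRCm38 for this and all positions of genes), the subunit that does not hold the cofactor, measured 15.3, 16.3, 16.5 and 16.3 CPM in unoperated BL6 replicates 1 to 4 and 16.5, 16.1, 15.7 and 18.4 CPM in operated BL6. In MRL it measured 15.5, 16.7, 14.6 and 15.5 CPM unoperated and 15.4, 15.4, 14.0 and 16.9 CPM operated. The ranges overlapped in both strains. Its log2 fold change was 0.05 in BL6 (95% confidence interval -0.13 to 0.23, adjusted p = 0.592 in edgeR's quasi-likelihood test) and -0.02 in MRL (-0.19 to 0.16, adjusted p = 0.888), and its sign turned with some alternatives. These intervals hold the narrowest bounds of any member.

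Sptlc2 (ENSMUSG00000021036, chromosome 12, 87305058 to 87388355, minus strand), the catalytic subunit that binds pyridoxal phosphate, measured 9.37, 8.35, 7.80 and 8.25 CPM in unoperated BL6 and 21.6, 15.1, 18.6 and 26.4 CPM in operated BL6. Each operated sample lay above each unoperated sample. MRL samples held 14.0, 9.28, 12.3 and 9.53 CPM unoperated and 23.4, 19.3, 23.4 and 15.9 CPM operated, again with no overlap. It rose by 1.27 on the log2 scale in BL6 (SE 0.18, adjusted p = 4.35e-05 in the quasi-likelihood test) and by 0.86 in MRL (SE 0.18, adjusted p = 0.00261). Non-overlap upwards was found in 27.5% of all genes in BL6 and 17% in MRL. Per kilobase of exon, the Sptlc2 level was 0.231 ± 0.0262 of the Sptlc1 level in unoperated BL6 and 0.532 ± 0.0933 in operated BL6 (SD, n = 4). In MRL the ratio was 0.319 ± 0.0741 unoperated and 0.590 ± 0.139 operated, so in each group Sptlc1 was the more abundant subunit per length.

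Other proteins of the same enzyme were read from the pathway list. Sptssa, a small activating subunit, rose in both strains, from 19.2 ± 1.70 to 28.5 ± 2.79 CPM in BL6 (log2 fold change 0.57, adjusted p = 0.000190 in the quasi-likelihood test, SD, n = 4) and from 25.3 ± 1.65 to 32.7 ± 3.27 CPM in MRL (0.37, adjusted p = 0.00834). The ORMDL proteins restrain serine palmitoyltransferase when ceramide is abundant, and their genes did not move together. Ormdl2 rose by 0.88 in BL6 and 0.63 in MRL (adjusted p = 0.000929 and 0.0148 in the quasi-likelihood test). With total counts as the only scaling, the MRL calls of Sptssa and Ormdl2 were lost (adjusted p = 0.0539 and 0.0507). Ormdl1 fell by 0.81 in BL6 (adjusted p = 0.00272), and in MRL its log2 fold change was -0.43 (adjusted p = 0.0934). Ormdl3, whose mean in BL6 went from 38.4 to 28.2 CPM, had -0.45 in BL6 at an adjusted p of 0.0424, a call lost on leaving out operated BL6 replicate 1, 2 or 3 or any 1 unoperated library of either strain (-0.47 to -0.37, adjusted p from 0.0515 to 0.117). That call was also lost with total counts only (-0.27, adjusted p = 0.353) and with a filter at a mean of 5 CPM (adjusted p = 0.0834). Ormdl3 had -0.18 in MRL (adjusted p = 0.441), which became -0.44 (adjusted p = 0.0167) without replicate 4 of operated MRL.

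Cers1 (ENSMUSG00000087408, chromosome 8, 70315775 to 70331592, plus strand) was the member that was lower after surgery. It measured 11.1, 11.3, 12.3 and 11.3 CPM in unoperated BL6 and 1.25, 2.25, 1.15 and 0.938 CPM in operated BL6. In MRL the levels were 9.63, 13.8, 14.7 and 13.4 CPM unoperated and 0.528, 1.56, 1.46 and 5.29 CPM operated. Every operated sample lay below every unoperated sample of its strain, as in 29.2% of all genes in BL6 and 16.7% in MRL, and replicate 4 of operated MRL stood well above the rest of its group. The level was 8.28-fold lower in BL6 (log2 fold change -3.05, SE 0.47) and 5.69-fold lower in MRL (-2.51, SE 0.45), values that the choice of the gene used. Without replicate 4 of operated MRL the log2 fold change in MRL was -3.43. The counts behind the operated level were 31 to 58 reads in BL6 and 13 to 201 in MRL.

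What the counts of Cers1 hold depends on a neighbour. Gdf1, a growth factor gene not analysed here, is encoded on the same strand by a transcript that also carries Cers1, and its exons cover 1349 of the 3171 exon bases of Cers1 (42.5%). Of the 50-base words of Cers1 exons, 41.8% were shared with another gene, with both strands searched. The share was 0% for Cers5, Sptlc1, Sptlc2 and Asah1. It was 8.48% for Cers4, mainly with the pseudogene Vmn2r-ps89, which lies on the opposite strand. How the submitters' counting assigned such reads is not given in the sources used here, and the level of Cers1 is uncertain to that extent.

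The other measured synthases rose. Cers2 (ENSMUSG00000015714, chromosome 3, 95314791 to 95323599, plus strand) measured 37.6, 37.6, 35.7 and 34.7 CPM in unoperated BL6 and 64.3, 52.5, 68.2 and 71.6 CPM in operated BL6. In MRL the values were 43.6, 33.9, 35.7 and 35.0 CPM unoperated and 65.7, 58.2, 63.1 and 45.9 CPM operated. The groups did not overlap in either strain, though operated replicate 4 of MRL came within a few CPM of unoperated replicate 1. Cers2 rose by 0.82 on the log2 scale in BL6 (SE 0.12, adjusted p = 7.09e-05 in the quasi-likelihood test) and by 0.65 in MRL (SE 0.12, adjusted p = 0.00180).

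Cers5 (ENSMUSG00000023021, chromosome 15, 99734881 to 99772885, minus strand) had the largest rise of the members tested in BL6. It measured 7.63, 7.68, 6.69 and 6.39 CPM unoperated and 17.0, 13, 17.0 and 25.1 CPM operated in BL6. The MRL samples measured 11.2, 7.03, 8.10 and 8.45 CPM unoperated and 17.8, 15.5, 20.4 and 13.9 CPM operated. No operated sample fell within the unoperated range of its strain. The log2 fold change was 1.34 in BL6 (SE 0.19, adjusted p = 4.46e-05 in the quasi-likelihood test) and 0.96 in MRL (SE 0.19, adjusted p = 0.00208).

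Cers4 (ENSMUSG00000008206, chromosome 8, 4493026 to 4531680, plus strand) measured 7.63, 7.54, 7.06 and 6.41 CPM in unoperated BL6 and 11.0, 9.57, 13.3 and 17.0 CPM in operated BL6. In MRL it measured 7.76, 6.62, 7.51 and 4.82 CPM unoperated and 16.6, 14.4, 13.5 and 8.48 CPM operated. The ranges were apart in both strains, with replicate 4 of operated MRL again the lowest operated sample. Cers4 rose by 0.83 in BL6 (SE 0.21, adjusted p = 0.00296 in the quasi-likelihood test) and by 0.99 in MRL (SE 0.21, adjusted p = 0.00314).

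Per kilobase of exon, the makeup of the 4 synthases shifted with these values, as the stacked shares by sample show. Cers1 made up 22.5% ± 1.46 of their summed CPM per kilobase in unoperated BL6 and 1.96% ± 1.16 in operated BL6 (SD, n = 4). In MRL its share was 23.9% ± 5.16 unoperated and 3.42% ± 3.70 operated, or 1.60% without operated replicate 4, and all of these are descriptions since they hold the gene chosen for its fall. Cers2 held the largest share in every group, 61.4% and 72.9% in unoperated and operated BL6 and 58.7% and 70.5% in MRL. The share of Cers5 was 12.4% and 20.9% in BL6 and 14.2% and 21.3% in MRL, and that of Cers4 averaged between 3.17% and 4.77% over the 4 groups. The sum itself was 16.1 ± 0.583 CPM per kilobase in unoperated and 24 ± 3.65 in operated BL6, and 17.1 ± 1.14 and 22.4 ± 2.70 in MRL. With only the exon bases outside Gdf1 as the length of Cers1, its share was 33.6% and 3.34% in BL6 and 35.2% and 5.69% in MRL, an alternative chosen after the data were seen.

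**Figure D2:**
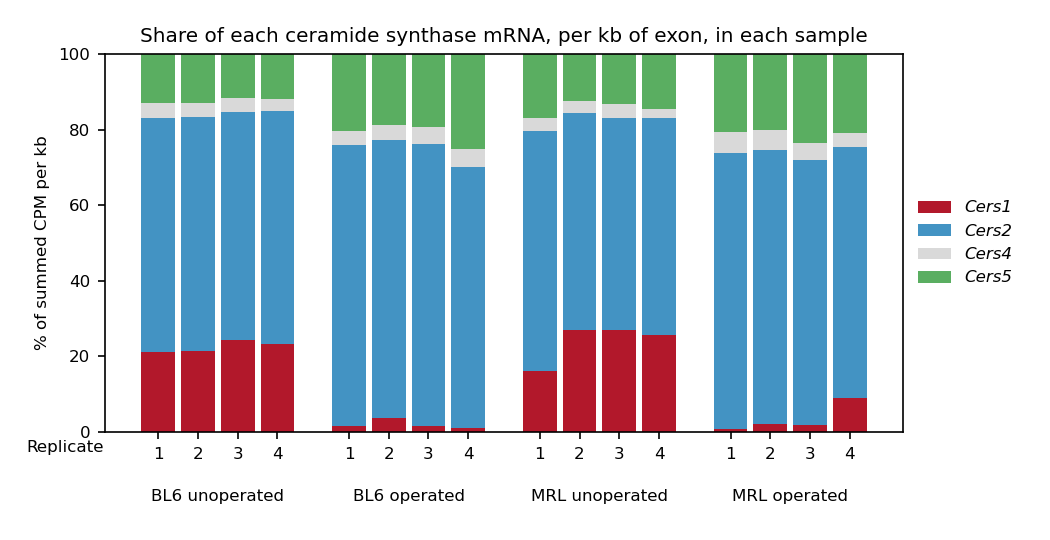
Share of each ceramide synthase in the summed CPM per kilobase of exon of the 4 measured synthases (vertical axis, percent), 1 stacked bar per sample, with replicates 1 to 4 in each group. The Cers1 part averages 22.5% and 23.9% in the unoperated groups and 1.96% and 3.42% in the operated groups, and replicate 4 of operated MRL has the largest Cers1 part of the operated bars.

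Degs1 (ENSMUSG00000038633, chromosome 1, 182275772 to 182282804, minus strand), which puts the double bond into dihydroceramide, measured 29.5, 25.4, 23.1 and 22.2 CPM in unoperated BL6 and 34.0, 33.9, 36.5 and 55.2 CPM in operated BL6. MRL samples held 35.8, 27.3, 26.1 and 27.3 CPM unoperated and 41.7, 36.7, 41.8 and 38.5 CPM operated. The ranges did not overlap in either strain, and replicate 1 of unoperated MRL came nearest to the operated samples. Degs1 rose by 0.67 in BL6 (SE 0.15, adjusted p = 0.00141 in the quasi-likelihood test) and by 0.45 in MRL (SE 0.15, adjusted p = 0.0287). The MRL call was lost on leaving out any 1 of 5 MRL libraries (unoperated replicates 2, 3 and 4, operated replicates 1 and 3), with log2 fold changes of 0.40 to 0.42 and adjusted p from 0.0667 to 0.0870 in the same test, and with total counts as the only scaling (adjusted p = 0.112).

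The breakdown enzymes did not pass the test. Asah1 (ENSMUSG00000031591, chromosome 8, 41340197 to 41374773, minus strand), acid ceramidase, measured 24.5, 19.7, 17.7 and 21.3 CPM in unoperated BL6 and 25.3, 20.4, 23.1 and 36.7 CPM in operated BL6. In MRL it measured 27.4, 23.9, 22.4 and 25.5 CPM unoperated and 24.8, 21.1, 24.9 and 26.3 CPM operated. The ranges overlapped in both strains, with replicate 4 of operated BL6 far above the rest. The log2 fold change was 0.34 in BL6 (95% confidence interval 0.01 to 0.67, adjusted p = 0.0602 in the quasi-likelihood test) and -0.03 in MRL (-0.36 to 0.30, adjusted p = 0.869). In BL6 the value was 0.14 without operated replicate 4, and Asah1 was called, at 0.40 to 0.45, on leaving out unoperated replicate 1 or operated replicate 2 or 3. It was also called, at 0.41, with a filter at a mean of 5 CPM (adjusted p = 0.0394).

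Sgpl1 (ENSMUSG00000020097, chromosome 10, 61098642 to 61147703, minus strand) measured 11.3, 10.7, 11.0 and 12.3 CPM in unoperated BL6 and 13, 10.1, 15.5 and 26.1 CPM in operated BL6. In MRL the levels were 22.3, 14.5, 15.6 and 15.4 CPM unoperated and 14.0, 14.2, 19.4 and 24.7 CPM operated. Operated samples spread over more than the unoperated range in each strain, and the ranges overlapped. The log2 fold change was 0.52 in BL6 (SE 0.25, adjusted p = 0.0778 in the quasi-likelihood test) and 0.10 in MRL (SE 0.25, adjusted p = 0.764). Without replicate 4 of operated BL6 the BL6 value was 0.18, and without replicate 2 it was 0.68 and called (adjusted p = 0.0190).

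**Figure D3:**
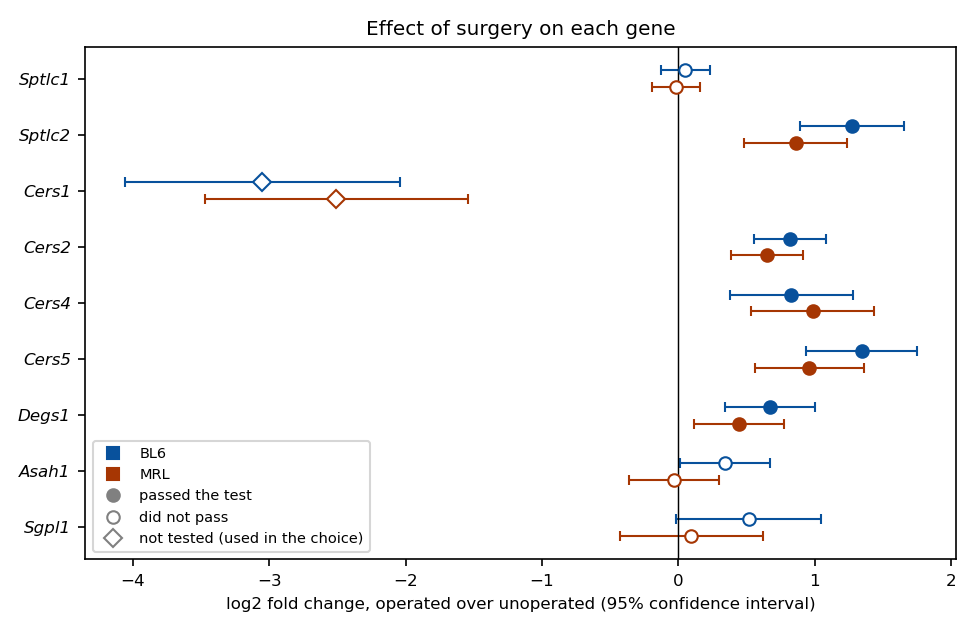
Log2 fold change of each gene, operated over unoperated (horizontal axis), with the 95% confidence interval of the fit, in BL6 (blue) and MRL (brown), where filled circles passed the test, open circles did not and open diamonds mark Cers1, which was not tested. Sptlc1 lies at 0.05 and -0.02 with the shortest intervals, and Sptlc2, Cers2, Cers4, Cers5 and Degs1 lie between 0.45 and 1.34.

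In unoperated muscle, the order of the members per kilobase of exon was led by Cers2 and Degs1, at 9.90 ± 0.401 and 9.66 ± 1.26 CPM per kilobase in BL6 and at 10.1 ± 1.21 and 11.2 ± 1.74 in MRL (SD, n = 4). These neighbours lay within their spread of each other in both strains. Asah1 came next at 6.13 ± 0.841 and 7.33 ± 0.638, then Sptlc1 at 4.53 ± 0.148 and 4.39 ± 0.243, and Cers1 after it at 3.62 ± 0.183 and 4.06 ± 0.704 CPM per kilobase. In MRL, Sptlc1 and Cers1 were within their spread of each other. Cers5 and Sgpl1 followed at 2.0 ± 0.186 and 1.85 ± 0.114 in BL6, again within their spread, and at 2.45 ± 0.50 and 2.76 ± 0.587 in MRL. Sptlc2, at 1.04 and 1.39, and Cers4, at 0.584 and 0.545, were the lowest. After surgery the mean of Cers1 was the lowest of the 9 in both strains by all exon bases, at 0.440 ± 0.184 and 0.697 ± 0.664 CPM per kilobase, and Cers5 was behind Cers2, Degs1 and Asah1, at 5.08 ± 1.44 and 4.78 ± 0.793. In operated MRL the place of Cers1 turned with the length and the library: in replicate 4 its share of the synthases was 8.88% against 3.68% for Cers4, and with the exon bases outside Gdf1 the group means were 5.69% for Cers1 and 4.67% for Cers4.

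Within groups, the same samples were often the extremes. Replicate 4 of operated BL6 was the highest of its group in 8 of the 9 genes and the lowest in Cers1, while replicate 2 of that group was the lowest in 7 and the highest in Cers1. In unoperated MRL, replicate 1 was the highest in 7 genes and the lowest in Cers1. Replicate 4 of operated MRL was the highest in Cers1 and the lowest in Cers2, Cers4, Cers5 and Sptlc2. These orders are a description of 4 samples each. How often the same libraries were the extremes over all genes is not given, so the counts are no result about the members.

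Markers of other cell types were read in the same contrast, and not every list moved in both strains. Of all genes, 35.1% were called higher and 32.8% lower in BL6, and 22.3% higher and 22.7% lower in MRL. Of 7 adipocyte markers 6 were measured and all 6 rose in both strains, their sum going from 225 to 311 CPM in unoperated BL6 to 1309 to 2241 in operated BL6, and from 275 to 400 to 1381 to 2018 CPM in MRL. The 8 macrophage markers summed to 42.4 to 155 CPM in unoperated and 96.0 to 628 in operated BL6, with 6 of 8 called higher, and to 86.7 to 360 and 149 to 286 CPM in MRL, with 1 of 8 called higher. The 7 fibroblast markers summed to 582 to 1376 and 924 to 5354 CPM in BL6 (4 of 7 higher) and to 1180 to 1996 and 1561 to 2968 CPM in MRL (1 of 7 higher). For macrophages and fibroblasts, replicate 4 of operated BL6 and replicate 1 of each unoperated group held the highest sums of their groups. Endothelial markers summed to 286 to 404 and 573 to 774 CPM in BL6 (5 of 6 higher) and to 219 to 317 and 318 to 767 CPM in MRL (6 of 6 higher). Of 7 Schwann cell markers 6 were measured, with sums of 81.0 to 108 and 218 to 541 CPM in BL6 (6 of 6 higher) and 70.9 to 133 and 125 to 363 CPM in MRL (5 of 6 higher). Satellite cell markers, 4 of 5 measured, summed to 55.6 to 68.7 and 43.6 to 65.3 CPM in BL6 (1 higher, 3 lower) and to 42.7 to 46.6 and 34.2 to 59.0 CPM in MRL (1 higher, 2 lower). Of the 10 fibre markers, 5 were lower in BL6 and 4 in MRL and none was higher, and no measured marker of any of these lists was at 0 in a sample. Their part in the results on the ceramide genes was not tested.

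Beyond the set, 54 of 69 other listed genes of sphingolipid metabolism were analysed. In BL6, 44 passed the test (81.5%, 28 higher and 16 lower), and in MRL 30 passed (55.6%, 16 higher and 14 lower), against 67.9% and 45% of all genes. Of these, 27 genes were called in both strains, all in the same direction, 14 higher and 13 lower. That is 61.4% of the BL6 calls and 90.0% of the MRL calls. The same overlap over all genes was not computed, so this one is no result about the list. Without both libraries that stood apart the counts were 41 and 36, without 3 libraries 40 and 40, and without replicate 1 of unoperated BL6 41 and 28. With total counts as the only scaling, 18 were called in MRL. No share of all genes is given for these alternatives, so a move of the count is no result about the list.

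Of the 5 other genes of de novo synthesis, all passed in BL6 (3 higher, 2 lower) and 2 in MRL (both higher). The shares called were 100% and 40%, where 67.9% and 45% of all genes were called. This count and those of the lists below are descriptions of short lists. Kdsr, the reductase that follows serine palmitoyltransferase, rose from 7.17 ± 1.41 to 11.2 ± 1.66 CPM in BL6 (log2 fold change 0.64, adjusted p = 0.00746 in the quasi-likelihood test, SD, n = 4), and its log2 fold change in MRL was 0.11 (adjusted p = 0.652). The rest of this list are the Sptssa and Ormdl genes above.

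Genes for sphingomyelin, glycolipids and ceramide transfer moved both ways: of 13, 6 were higher and 6 lower in BL6, and 2 were higher and 6 lower in MRL. Those called made up 92.3% in BL6 and 61.5% in MRL, against 67.9% and 45% of all genes. St3gal5, which adds sialic acid to lactosylceramide and so starts the gangliosides, had the largest fall of all 54 genes, from 90.0 ± 17.3 to 20.7 ± 6.59 CPM in BL6 (log2 fold change -2.12, adjusted p = 0.000104 in the quasi-likelihood test, SD, n = 4) and from 39.7 ± 3.19 to 11.0 ± 7.87 CPM in MRL (-1.84, adjusted p = 0.00159, and -2.49 without operated replicate 4). The operated range ended below the unoperated range in both strains. Samd8, a sphingomyelin synthase relative that makes ceramide phosphoethanolamine, had log2 fold changes of -1.0 in BL6 and -0.86 in MRL and fell in both (adjusted p = 5.71e-05 and 0.00105 in the quasi-likelihood test). Ugt8a, which makes the galactosylceramide of myelin, rose from 0.800 to 2.96 CPM in BL6 (1.89, adjusted p = 0.00509) and from 0.771 to 2.47 CPM in MRL (1.66, adjusted p = 0.0196), and the MRL call was lost without unoperated replicate 2 or operated replicate 1 (1.46 and 1.03) and with limma voom (adjusted p = 0.0617). B4galnt1, which extends gangliosides, rose by 2.31 in BL6 (adjusted p = 0.00757), or by 1.63 without operated replicate 4. In MRL 1 library decided its value, which was -0.07 with all samples and 1.27 (adjusted p = 0.0409) without replicate 1 of unoperated MRL.

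Among 16 genes of breakdown, 8 were higher and 4 lower in BL6, and 4 were higher and 4 lower in MRL. These shares, 75% and 50%, were near the 67.9% and 45% of all genes. Arsa, the lysosomal sulfatase of sulfatide, rose by 1.12 in BL6 and 0.79 in MRL (adjusted p = 0.000588 and 0.0119 in the quasi-likelihood test, the latter 0.0515 without operated replicate 3). Acer3, an alkaline ceramidase, rose by 0.87 and 0.82 (adjusted p = 0.00278 and 0.00868). Acer2, its relative in the Golgi, rose by 0.68 in BL6 (adjusted p = 0.0245, lost at 0.58 to 0.67 without unoperated replicate 2, 3 or 4 or operated replicate 1) and by 1.31 in MRL (adjusted p = 0.00194). Glb1, lysosomal beta-galactosidase, rose by 1.22 in BL6 (adjusted p = 0.00512) and had 0.45 in MRL (adjusted p = 0.288). Without both libraries that stood apart, Glb1 was called in MRL at 0.71 (adjusted p = 0.0397).

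Of 10 genes of sphingosine 1-phosphate metabolism and signalling, 4 were higher and 2 lower in BL6, and 4 were higher and 1 lower in MRL. With 60% and 50% called, this list was also near the 67.9% and 45% of all genes. S1pr1, the receptor best known from endothelium and lymphocytes, rose from 44.2 ± 5.75 to 134 ± 22.5 CPM in BL6 (log2 fold change 1.61, adjusted p = 6.98e-05 in the quasi-likelihood test, SD, n = 4) and from 34.2 ± 5.10 to 81.2 ± 33.1 CPM in MRL (1.25, adjusted p = 0.00195). The endothelial markers above were higher in the same samples, and their part was not tested. Plpp1, a phosphatase of lipid phosphates at the cell surface, rose by 1.02 and 0.85 (adjusted p = 9.90e-06 and 0.000267). Sphk1, a sphingosine kinase, rose from 0.994 to 5.60 CPM in BL6 (2.49, adjusted p = 0.000439, and 1.80 without operated replicate 4). Its rise of 1.19 in MRL had an adjusted p of 0.04996 that passed above 0.05 without any 1 unoperated BL6 library, operated BL6 replicate 3, unoperated MRL replicate 2, 3 or 4 or operated MRL replicate 1, 3 or 4 (0.73 to 1.31, adjusted p up to 0.228). The MRL call of Sphk1 was also lost with DESeq2's size factors, total counts only and limma voom (adjusted p = 0.0507, 0.0817 and 0.106). Spns2, the exporter of sphingosine 1-phosphate, fell by 1.12 in MRL (adjusted p = 0.000660) and by 0.41 in BL6 (adjusted p = 0.0410, lost at -0.44 to -0.31 without unoperated replicate 1, 2 or 3 or operated replicate 1, 3 or 4). The BL6 call of Spns2 was also lost with total counts only, with a filter at a mean of 5 CPM, with only the 2 groups in the fit, without both libraries that stood apart and without 3 libraries (adjusted p from 0.0597 to 0.0987).

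Of 10 genes that supply acyl chains and serine, 7 were higher and 2 lower in BL6, and 4 were higher and 3 lower in MRL. Here 90% and 70% were called, against 67.9% and 45% of all genes. Elovl5, an elongase of polyunsaturated fatty acids, rose from 12.4 ± 2.51 to 38.6 ± 7.23 CPM in BL6 (log2 fold change 1.64, adjusted p = 1.43e-05 in the quasi-likelihood test, SD, n = 4) and from 14.3 ± 2.95 to 35.9 ± 6.65 CPM in MRL (1.33, adjusted p = 0.000465). Elovl1, the elongase of saturated very long chains that Cers2 uses, rose by 1.54 and 0.87 (adjusted p = 6.88e-05 and 0.00802). Elovl6, which turns palmitoyl into stearoyl chains, rose by 1.62 in BL6 (adjusted p = 0.0102, lost without operated replicate 4, at 0.96, and with limma voom at an adjusted p of 0.0503) and had 0.98 in MRL (adjusted p = 0.108). A pair of dehydratases of the same elongation cycle went opposite ways: Hacd1, the form abundant in muscle, fell by 1.26 and 1.09 (adjusted p = 0.000174 and 0.00218), and Hacd2 rose by 1.39 and 1.07 (adjusted p = 0.000126 and 0.00305).

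**Figure D4:**
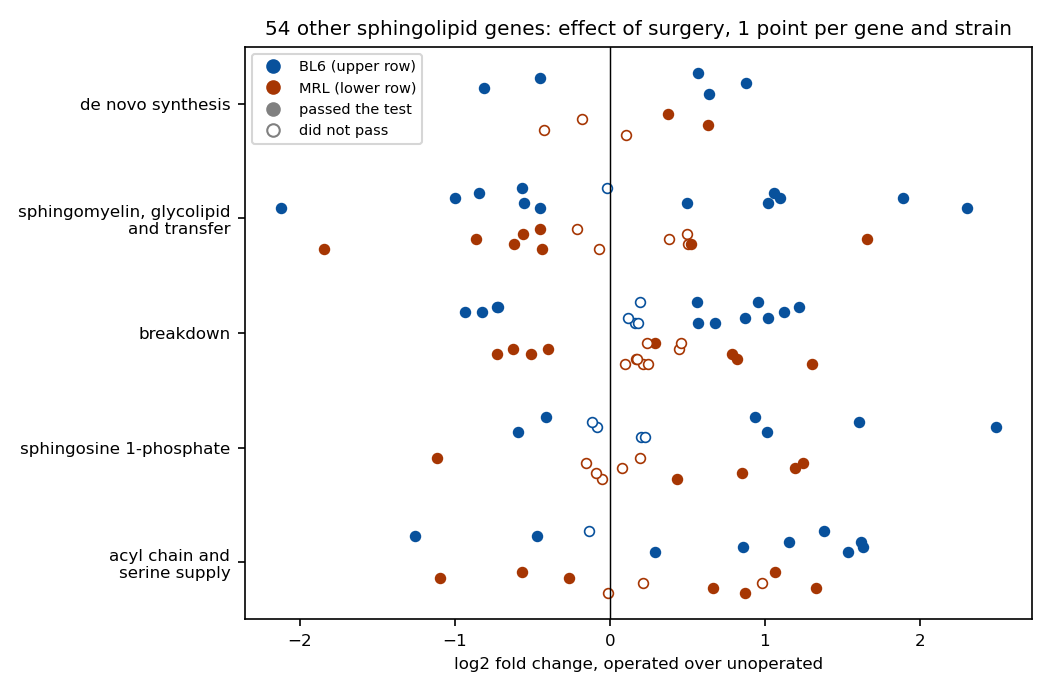
Log2 fold change, operated over unoperated (horizontal axis), of the 54 other sphingolipid genes in 5 lists, 1 point per gene and strain, with BL6 in the upper (blue) and MRL in the lower (brown) row of each list, where filled points passed the test. Points lie on both sides of 0 in every list, and the leftmost points, at -2.12 and -1.84, are St3gal5.

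Between the strains, none of the members besides Cers1 passed the test in unoperated muscle, where 10.4% of all genes were called. None passed in operated muscle, where 12.9% were called. At an unadjusted p under 0.05, 2 members were counted in unoperated muscle and 0 in operated muscle, against 24.3% and 26.7% of all genes, and DESeq2 and limma voom also called 0 in each. The 2 were Sptlc2, higher in MRL by 0.42 (SE 0.18, adjusted p = 0.163 in the quasi-likelihood test), and Sgpl1, higher by 0.58 (SE 0.25, adjusted p = 0.164). The unoperated samples of Sgpl1 did not overlap between strains, at 10.7 to 12.3 CPM in BL6 and 14.5 to 22.3 in MRL, as was so, with MRL higher, in 12.2% of all genes. With only these 8 samples in the fit, Sgpl1 was called (adjusted p = 0.0146). Cers1, described without a test because its choice used levels in these groups, was at 0.16 (SE 0.42) in unoperated muscle. In operated muscle it was at 0.71 (SE 0.47), and at -0.22 without replicate 4 of operated MRL.

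Of the other sphingolipid genes, 5 of 54 (9.26%) differed between the strains in unoperated and 3 of 54 (5.56%) in operated muscle. Over all genes the shares were 10.4% and 12.9%, so the counts by themselves are no result about the list. The genes called are named here because the counts are small, after their values were seen. In unoperated muscle St3gal5 was lower in MRL by 1.18 (adjusted p = 0.0321 in the quasi-likelihood test), while Sptssa was higher by 0.39 (adjusted p = 0.0177), Psph by 0.53 (adjusted p = 0.000949), Psat1 by 1.01 (adjusted p = 0.0126) and B4galnt1 by 2.34 (adjusted p = 0.0381). Psph and Psat1 act in serine synthesis. B4galnt1 measured 14.0 CPM in replicate 1 of unoperated MRL, where the group's median was 2.11. The count in unoperated muscle was 3, 1 and 2 without unoperated BL6 replicates 1, 3 and 4, 2 and 3 without unoperated MRL replicates 1 and 4, and 8 without operated BL6 replicate 4. In operated muscle Psph was higher in MRL by 0.74 (adjusted p = 4.59e-05), Asah2, a neutral ceramidase, was higher by 0.59 (adjusted p = 0.0162), and Cerk, ceramide kinase, was lower by 0.73 (adjusted p = 0.0300). The count in operated muscle was 7 without operated BL6 replicate 2 and 6 without operated MRL replicate 3. The shares of all genes called in these fits are not given here. The split of all genes into higher and lower moved with the scaling: 48.4% of the calls in unoperated muscle and 59.1% in operated muscle were higher in MRL, against 70.3% and 72.2% with total counts only.

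Whether surgery acted differently in the 2 strains was tested by an interaction, the MRL effect minus the BL6 effect. It was called in 0 of the 8 members in edgeR's quasi-likelihood test, in 0 at an unadjusted p under 0.05 and in 0 by DESeq2 or limma voom, where 0.248% of all genes were called and 15.7% had an unadjusted p under 0.05. The values ran from -0.42 for Sgpl1 to 0.16 for Cers4, with adjusted p from 0.397 to 0.800. For Sptlc2 the value was -0.41 with a 95% confidence interval of -0.95 to 0.12, and for Cers5 it was -0.38 with an interval of -0.95 to 0.18, so a smaller rise in MRL of that size or no difference both lie within the intervals. The interaction value of Cers1, which was not tested, was 0.54 with all samples and -0.38 without replicate 4 of operated MRL. None of the 54 other genes was called in the interaction, with 6 at an unadjusted p under 0.05 and 0 called by DESeq2 or limma voom.

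The genes most like Cers1 over the 16 samples were ranked by Pearson's r of log2 CPM among 9643 genes with a mean of at least 5 CPM. They were Gpc1 (r = 0.981), Foxk2 (0.978), Gpd1 (0.977), Calm3 (0.977) and Limd1 (0.977). The samples fall into 2 clusters by surgery, which the choice of Cers1 used, so these values mostly restate that each gene was lower in operated muscle. Gpd1, the cytosolic glycerol 3-phosphate dehydrogenase, averaged 703 and 257 CPM in unoperated and operated BL6 and 617 and 275 in MRL. Gpc1, a glypican, averaged 344 and 150 CPM in BL6 and 344 and 174 in MRL. After subtracting each group's mean, r was 0.874 to 0.925 over the same 16 samples for the 5 genes. The genes were picked by their r over these samples, which can raise these values too. No such r is given for the candidates as a whole, so the values are a description. They include the operated MRL library that stood well above its group in Cers1, and its part was not tested.

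In the authors' deposited table of fold changes, the same 5 members besides Cers1 had a false discovery rate under 0.05 after surgery in each strain. None of the members besides Cers1 had one in either strain comparison. These values come from the same samples. The share of all genes under that rate there is not given here, so the counts by themselves are no result about the members. In the authors' deposited table the log2 fold change of Sptlc2 was 1.14 in BL6 and 0.99 in MRL, and that of Sptlc1 was 0.03 and 0.01. Among members other than Cers1, the values in the authors' deposited table lay farthest from those computed here for Sgpl1, at 0.25 in BL6 and 0.31 in MRL.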

How the data were processed

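Messenger RNA was sequenced from 16 muscle samples. The authors deposited raw read counts per gene, given with Ensembl IDs and symbols, for 11710 genes in which the lowest mean was 1.05 CPM, so genes of low level had been left out before deposit. The submitters' processing notes name FastQC, STAR, edgeR and the mm10 build; versions, the counter and its use of strand are not given in the sources used here. The authors also deposited a table of log2 fold changes with p-values and false discovery rates for each comparison.

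From the counts, CPM and tests were computed with edgeR 4.0.16 in R 4.3.3: scaling by the trimmed mean of M-values, filterByExpr by group (minimum count 10; 11709 genes kept, 1 removed), 1 mean per group over all 16 samples, no replicate block, and Benjamini-Hochberg adjustment over all genes. Confidence intervals are 95%. The script was tested on simulated data. Alternatives were DESeq2 1.42.0, limma 3.58.1 (voom), other scalings and filters, the 2 groups of a comparison alone, a replicate block, and leaving out libraries. No pair of libraries within a group agreed within sampling noise. Gene positions, exon lengths and overlaps came from GENCODE M21 (GRCm38), which held 11708 of the 11710 IDs, 11690 under the same symbol. Promoter windows of 8 of the 9 genes came from RefSeq. CPM per kilobase uses the exon bases of all transcripts merged.

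The members and lists were chosen with earlier results of these data known, so no p was adjusted over a list alone. Beside the members, pathway genes were named where called with the 3 largest changes per list and comparison, or where they belong to a member's enzyme complex. A gene that this rule names is not reported here. Markers of T and B cells were not analysed here.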

Additional observations from a re-analysis of the deposited data

Results flagged for a closer look

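In groups of 4 samples, 40 sets of values (each member in each group, and the Cers1 share in each group) were searched for a sample far from the others, and chance alone gives about 2 in 40. Degs1 in replicate 4 of operated BL6 stood at 55.2 CPM, where the other 3 samples held 33.9 to 36.5. In replicate 1 of unoperated MRL, Degs1 stood at 35.8 CPM against 26.1 to 27.3 in the others, and Sgpl1 stood at 22.3 CPM against 14.5 to 15.6. The Cers1 share of ceramide synthase messenger RNA in that same sample was 16.2%, with 25.6% to 27.0% in the rest of that group. So 3 of the 4 values came from 1 library, which also held the highest summed macrophage and fibroblast markers of its group, and the remaining value came from the library of operated BL6 with the highest such sums.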

How the results depend on the processing

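The counts of members called after surgery stayed within 1.5 times of the reported value under every alternative run, and DESeq2 and limma voom gave 5 in each strain. With the replicate number as a block they were 6 (BL6) and 5 (MRL), with 0 in both strain comparisons and the interaction, and the pathway counts were 43 and 27 after surgery, 4 and 4 between strains and 0 in the interaction. The block called Asah1 in BL6 (0.33, adjusted p = 0.0359) and ended the Sphk1 call in MRL (1.06, adjusted p = 0.0657). The labels give a replicate number and do not say whether it stands for anything shared. Same-numbered samples deviated together (r over 0.1) in 1, 3, 3 and 3 of 4 pairs over the surgery and strain comparisons. Of 16 samples, 2 correlated best with their own number. No expected value is given for these counts, so whether a block was needed was not tested. With only the 2 groups compared, 1 member (Sgpl1) was called between unoperated strains, against 0. The pathway count was 18 for surgery in MRL with total counts only, against 30. Between unoperated strains it was 3 with a mean of at least 5 CPM, 11 with only 2 groups, 3 without both libraries that stood apart and 1 to 8 on leaving out single libraries, against 5. Between operated strains it was 6 with DESeq2, 7 without 3 libraries and 2 to 7 on leaving out single libraries, against 3. The share of all genes called under each alternative is not given, so a move of these counts need not be particular to the list. The Cers1 interaction turned to -0.63 without 3 libraries and ran from -0.38 to 0.87 on leaving out single libraries. B4galnt1 after surgery in MRL turned from -0.07 to 1.27 without both libraries and 1.20 without 3, and ran from -0.37 to 1.27 on leaving out single libraries. The Cers1 share in unoperated BL6 was 19.7% by coding bases, 18.5% with no length scaling and 33.6% outside Gdf1, and outside Gdf1 it was 3.34% in operated BL6 and 35.2% in unoperated MRL. Total counts moved the median log2 fold change of all genes from 0.04 to 0.18 for surgery in BL6 and from 0.01 to 0.15 between unoperated strains, and with them Degs1 (adjusted p = 0.112), Ormdl2, Sptssa and Sphk1 in MRL and Ormdl3 and Spns2 in BL6 were among the named genes no longer called. The cause of these moves was not tested beyond what each alternative leaves out. In operated muscle Cers1 rested on 13 to 201 reads a sample, fewer than any other member had in an operated sample.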
